A study of Caenorhabditis elegans with 2 samples.

Results

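The heterochronic timing genes of Caenorhabditis elegans set which cell fates are used at which larval stage. The 9 genes described here are lin-14, lin-28, lin-29, lin-41, lin-42, hbl-1, lin-46, daf-12 and blmp-1, taken by name out of 19973 nuclear protein-coding genes. For each of them, binding of the transcription factor LIN-1 was read from 5 kb upstream of the gene start to the gene end. LIN-1 was mapped by chromatin immunoprecipitation and sequencing (ChIP-seq) in whole larvae of strain RW12212, in which CRISPR had inserted TY1, EGFP and 3xFLAG tags at lin-1 itself (allele st12212). The single group comprised 2 biological replicates of L4 larvae aged 48 hours, grown from starved first-stage larvae after bleaching. Per the labels' description the tagged protein was pulled down with an antibody against GFP, although their antibody field reads lin-1. No untagged or untreated group was analysed here, and whole larvae do not show in which cells a site was bound.

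LIN-1 is an ETS-domain factor downstream of Ras and ERK signalling, best known for restraining vulval fates. The heterochronic pathway acts in the same epidermis, where the seam cells divide in a pattern that depends on the larval stage and the vulval precursors must become competent at the right time. Early genes such as lin-14, lin-28 and hbl-1 keep later fates from appearing too soon. The microRNAs lin-4 and the let-7 family switch those genes off, and lin-29 then drives the larval-to-adult change at the end of L4.

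The measurements were lists of peaks with an irreproducible discovery rate (IDR), which is low where 2 lists agree on the rank of a peak. A thresholded peak had a global IDR of 0.01 or less. The conservative list, the main one here, was made from both replicates per the deposited file lists and held 2243 nuclear peaks with a median signal of 73.8 (quartiles 60.6 and 96.1). The series list, also from both, held 2305 nuclear peaks, and the replicates' own lists, each thresholded within 1 replicate, held 1054 and 1326. Signal is the authors' value, on a scale that is not stated, and is ranked only within a list. Where the replicates' signals are set side by side, their scales may differ. A summit is the position that a list gives inside a peak, and for 2125 of all 2267 conservative peaks it was set at the same offset of 148 bp. Read depth is unknown.

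LIN-1 peaks were found at most of these genes, and all of the conservative ones lay inside the genes. Of the 9 genes, 6 had at least 1 conservative summit in the window: lin-14 and daf-12 with 2 each, and lin-28, lin-29, lin-42 and blmp-1 with 1 each. The share was 66.7% (exact 95% binomial interval 29.9 to 92.5%), beside 14.9% of all nuclear protein-coding genes by the same rule. The series list also gave 6 genes, beside 15.1% of all genes, and 5 of them were the same, since lin-46 entered and blmp-1 left. In replicate 1's own list 4 genes had a summit, beside 7.99% of all genes, and in replicate 2's list 5 did, beside 9.95%. In all, 7 genes had a summit in some thresholded list, while lin-41 and hbl-1 had none in any. The share of all genes with a summit in at least 1 of these lists was not counted, so the count of 7 has no matching share. The intervals cover counting over genes only, and 9 genes that act in 1 pathway are not independent replicates.

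Several of these genes are long, and a longer window holds a summit more often. The median window was 12.7 kb for the 9 genes and 7.03 kb for all protein-coding genes. Among genes with windows of 20 kb or more, 28.2% had a conservative summit, and all 4 heterochronic genes of that size did (lin-14, lin-29, lin-42 and daf-12). With 2 or more summits the share fell to 10.1% of such genes, and lin-14 and daf-12 were 2 of the 4. Windows of 10 to 20 kb had a summit for 21.7% of genes and for 1 of 3 here, which was blmp-1 and not lin-41 or hbl-1. Windows under 10 kb had one for 13.4% of genes and for 1 of 2 here, which was lin-28 and not lin-46. Per length, the 9 windows held 8 summits in 157 kb, or 5.1 per 100 kb, against 2.37 over all gene windows and 1.66 over all windows of 20 kb or more.

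The peaks lay within the genes. All 8 conservative summits lay between the start and the end of their own gene, and none lay in the 45 kb upstream. Gene bodies made up 71.3% of the windows. Of all nuclear conservative summits, inside a gene window or not, 37.7% lay in the body of a protein-coding gene. The matching share, over summits inside gene windows alone, was not counted. By gene body alone, 3.38% of all protein-coding genes had a summit, against 6 of the 9, and among genes with windows of 20 kb or more the share was 21.3%, against 4 of 4. By contrast, no gene had a conservative summit in the promoter window, from 1000 bp upstream to 200 bp downstream of the gene start, which 5.25% of all genes had. An outcome of 0 in 9 allows a share up to 33.6%, so a share below that of all genes was not detectable. The count of 0 holds for the gene start alone. Counted from any protein-coding transcript start, 3 of the 8 summits lay within 1 kb, against 56% of all nuclear conservative summits.

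**Figure D1:**
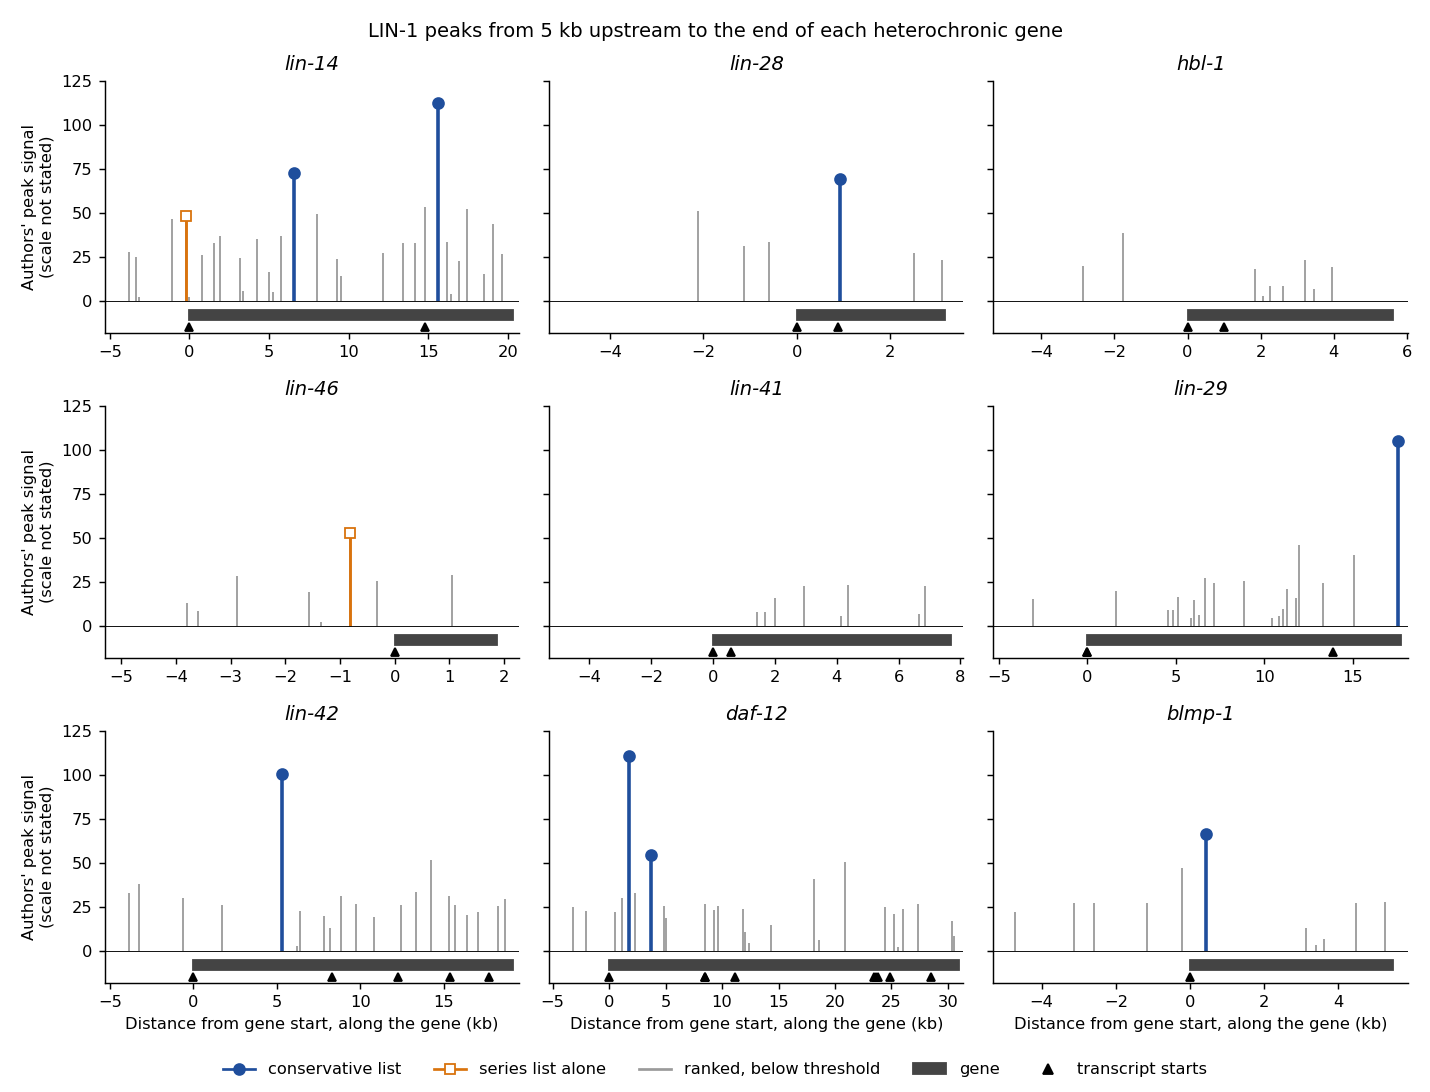
Signal of every peak in the conservative ranked list (vertical lines, in the authors' unit) at the 9 heterochronic genes. The horizontal axis gives the distance of each summit from the gene start in kb. Thresholded peaks of the series list alone are added. Each gene is a bar and its transcript starts are triangles. The 8 conservative peaks (blue) all stand over a gene bar, the 2 peaks of the series list alone (orange) stand upstream of lin-14 and lin-46, and hbl-1 and lin-41 hold only peaks below the threshold (grey).

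Among the genes that hold back later fates, lin-14 had the strongest peak. It encodes a nuclear protein that binds DNA and promotes first-stage fates, and it was the first known target of a microRNA. Its upper peak (chrX:11480995-11481290, ce11) had a conservative signal of 112 and lay 15.6 kb into the gene, in the fourth intron of the long isoform and 782 bp downstream of the start of the short isoform. Its signal was 52.6 in replicate 1 and 51.9 in replicate 2. The peak passed the threshold within replicate 2 alone (global IDR 0.00141, against 0.0453 within replicate 1). The other intronic peak (chrX:11471975-11472270) had a conservative signal of 72.5, lay 6.56 kb into the gene in the third intron, and had signals of 40.1 and 28.3. It passed in neither replicate's own list, although it was in the conservative list. The series list added a peak of signal 48 with its summit 209 bp upstream of the gene start (chrX:11465203-11465498), at a conservative IDR of 0.032. That summit lay within 200 bp of the non-coding RNA genes T25C12.8 and T25C12.9. The start of the neighbouring gene spp-9 was nearer to the upper summit (6641 bp) than the start of lin-14 was. The 101 bases centred on each lin-14 summit are given on the gene's strand from the WBcel235 genome, with CGGAA (the ETS core GGAA with the C before it) or its complement TTCCG in capitals, and with GGAA or TTCC in capitals where CGGAA was not found.
lin-14, 6.56 kb: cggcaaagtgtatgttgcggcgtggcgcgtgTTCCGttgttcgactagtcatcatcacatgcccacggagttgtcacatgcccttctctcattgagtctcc
lin-14, 15.6 kb: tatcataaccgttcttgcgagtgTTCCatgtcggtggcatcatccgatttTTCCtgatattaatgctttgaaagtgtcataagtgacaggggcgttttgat
lin-14, 209 bp upstream: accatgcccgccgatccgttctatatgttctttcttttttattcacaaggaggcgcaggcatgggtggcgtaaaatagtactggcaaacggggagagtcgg

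The lin-28 gene encodes an RNA-binding protein that blocks the maturation of let-7 and holds larvae in second-stage fates. Its peak (chrI:8409716-8410011) had a conservative signal of 69.3, below the nuclear median. Its summit was 940 bp into the gene, in the first intron of the long isoform and 56 bp downstream of the start of the short one. Of the 8 conservative summits it was the nearest to an annotated transcript start. The signal was 27.6 in replicate 1 and 43.9 in replicate 2, and the peak passed the threshold within replicate 2 alone. The next lin-28 peaks, 584 bp and 2118 bp upstream, had conservative IDR values of 0.0377 and 0.0449, above the threshold.

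The hbl-1 gene, which encodes a zinc-finger factor related to Drosophila hunchback, had no thresholded peak in any list. Its best ranked peak lay 1757 bp upstream with a conservative signal of 38.5 and an IDR of 0.247, and had signals of 14.5 in replicate 1 and 19.6 in replicate 2. Of genes with windows of the same length class, 47.6% had a peak of as low or lower an IDR, which puts hbl-1 near the middle of its class.

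The lin-46 gene, whose gephyrin-like product acts downstream of lin-28 and opposes HBL-1, had a thresholded peak in replicate 1's own list and not in replicate 2's. A peak with its summit 823 bp upstream of the gene start (chrV:12967884-12968179) had a signal of 52.8 in the series list. In replicate 1 its signal was 38.7 and it passed the threshold (IDR 0.00635), while in replicate 2 its signal was 20.4 and it did not pass (IDR 0.261). Its conservative IDR was 0.0263. The summit was 50 bp from the start of R186.8, a gene on the opposite strand, so it lay between divergent genes and was nearer to the other one, and the peak reached into R186.8. The 101 bases around the summit, shown on the lin-46 strand, held neither CGGAA nor GGAA.
lin-46, 823 bp upstream: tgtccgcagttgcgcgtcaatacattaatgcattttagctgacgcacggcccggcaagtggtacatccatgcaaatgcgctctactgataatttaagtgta

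Among the genes of the larval-to-adult switch, lin-29 had a peak that was among the best supported of all 9 genes. It encodes a zinc-finger factor that acts last in the pathway and ends the molting cycle. The peak (chrII:11917647-11917942) had a conservative signal of 105. It passed the threshold in both replicates, at signals of 50.4 in replicate 1 and 61.1 in replicate 2. The replicates' summits were 5 bp apart. The summit lay 17.5 kb from the gene start and 153 bp before the gene end, in the 3′ untranslated region of the long isoforms. The convergent gene hmg-12, which encodes a high mobility group protein, ends within 200 bp of it, and its start (1282 bp away) was the nearest start of a protein-coding gene. No ranked peak near the lin-29 start came close to the threshold: the next best lay 12 kb into the gene at an IDR of 0.0318. Around the summit, the GGAA site nearest to it is shown with 12 bases to each side, on the lin-29 strand.
lin-29, 17.5 kb: cgaaactcgcccTTCCagctctaaatta

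The lin-42 gene encodes a protein related to Period of the circadian clock, whose level cycles with the molts. Its peak (chrII:1246881-1247176) had a conservative signal of 101 and passed the threshold in both replicates, at signals of 41.5 and 53.3. The summit was 5330 bp into the gene, in the first intron of the long isoforms and 2994 bp upstream of the start of a shorter isoform. It also lay inside 2 short non-coding RNA genes annotated in that intron on opposite strands, F47F6.13 and F47F6.15. Their part in the signal was not tested. A further peak 14236 bp into the gene, with a signal of 51.4, had an IDR of 0.0218 and stayed above the threshold. The 101 bases around the summit, on the lin-42 strand, held no GGAA, and their GC content was 58.4%, the highest of the 8. Outside those bases the peak held CGGAA.
lin-42, 5330 bp: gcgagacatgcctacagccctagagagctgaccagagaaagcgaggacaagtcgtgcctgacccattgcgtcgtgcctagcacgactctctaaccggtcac

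The daf-12 gene encodes a nuclear hormone receptor that couples steroid signals to let-7 family expression and to the choice between growth and dauer arrest. Its stronger peak (chrX:10637550-10637845) had a conservative signal of 111 and passed the threshold in both replicates (49.9 in replicate 1, 60.4 in replicate 2). Its weaker peak (chrX:10639476-10639771) had 54.4, with 24.7 and 31.8, and passed in neither replicate's own list. The summits were 1926 bp apart, at 1790 and 3716 bp from the gene start, both in the first intron of the longest isoform, upstream of all other annotated starts. The weaker one was the lowest of the 8 by signal, and 86.9% of nuclear conservative peaks were higher. The stronger sequence held CGGAA, whereas the weaker one held no GGAA and had the lowest GC content, 35.6%.
daf-12, 1790 bp: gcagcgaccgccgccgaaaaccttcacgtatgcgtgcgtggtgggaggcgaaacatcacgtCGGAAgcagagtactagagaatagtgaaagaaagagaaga
daf-12, 3716 bp: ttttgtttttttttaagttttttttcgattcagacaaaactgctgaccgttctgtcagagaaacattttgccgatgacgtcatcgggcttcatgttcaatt

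Most of these sites held GGAA, the core that ETS proteins bind, as did most nuclear conservative summits in windows of 101 bp. A minority of both held the longer CGGAA. Over all nuclear conservative peaks, neither motif was commoner at the summit than 500 bp to each side. Whether the counts at the 8 sites differ from those shares was not tested. Motifs were looked for on either strand in 101 bp windows centred on the summit. CGGAA was in 2 of the 8 windows (lin-14 at 6.56 kb and the stronger daf-12 site), in 16.4% of all nuclear conservative windows and in 17% of windows centred 500 bp to each side of them. The shorter GGAA, which CGGAA contains, was in 6 of 8, against 58.2% of nuclear windows and 63.2% of the flanks. With 51 bp windows it was also in 6 of 8, against 34.3% and 39.2%. With 201 bp windows it was again in 6 of 8, here below the shares of 82.9% and 85.7%. In the 101 bp windows the longer CCGGAA was in none of the 8 and in 3.39% of nuclear windows, and CCGGAAGT was in none and in 0.178%. No summit of the 8 lay within 200 bp of a tRNA, snoRNA or snRNA gene, as 16.3% of nuclear conservative summits did. With only 8 summits, a difference from that share was not tested and is not claimed.

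Support from the replicates was uneven. Of the 8 conservative peaks, those of lin-29 and lin-42 and the stronger one of daf-12 were in both replicates' own lists. The peak of lin-28 and the upper one of lin-14 were in replicate 2's list alone, and 3 were in neither. Of all nuclear conservative peaks, 30.2% were in both own lists, 21.4% in replicate 2's alone and 35.3% in neither. By gene, 3 of the 9 had a summit in both own lists, beside 5.76% of all genes. The value printed for replicate 2 was above that for replicate 1 at 6 of the 8 and below it at both lin-14 peaks, which is no measure of binding where scales differ. Summits of the replicates lay 5 to 88 bp apart, against a median of 28 bp over 2192 nuclear conservative peaks with a ranked peak in both.

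**Figure D2:**
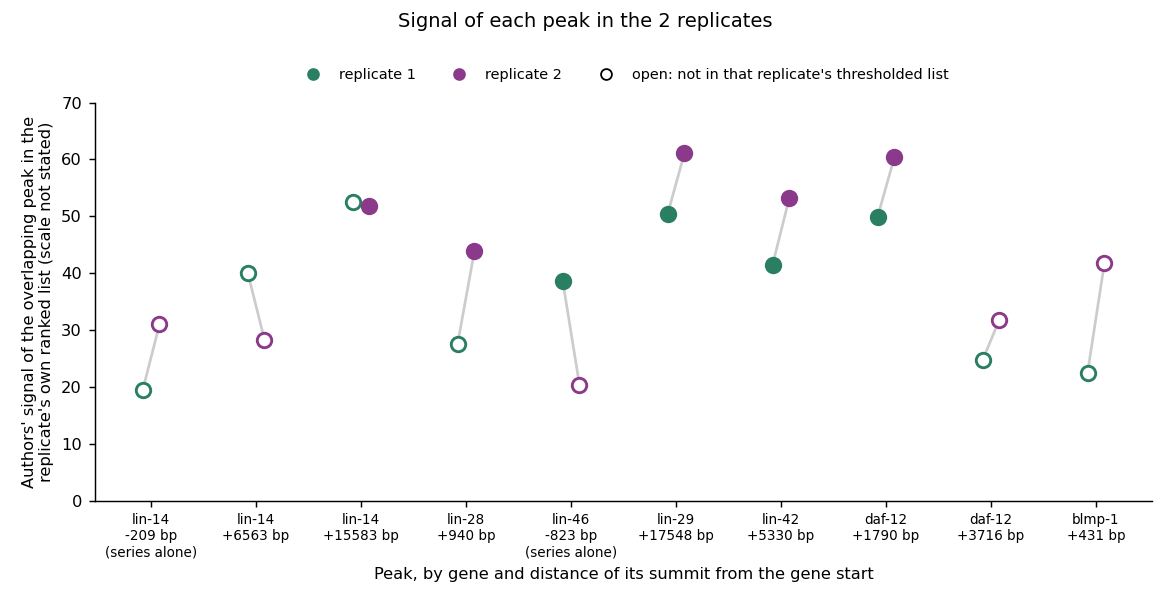
Signal of each peak in the replicates' own ranked lists (vertical axis, the authors' unit), by gene and distance of the summit from the gene start in bp, with filled points where the peak was in that replicate's thresholded list. Both points are filled for lin-29, lin-42 and the daf-12 peak at 1790 bp, and for lin-46 the point of replicate 1 alone is filled.

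The blmp-1 gene encodes a zinc-finger factor related to mammalian Blimp-1 that opens chromatin ahead of cyclic expression. Its conservative peak (chrI:10409585-10409880) had a signal of 66.2, with the summit in the first intron, 431 bp from the gene start. The signal was 22.5 in replicate 1 and 41.7 in replicate 2, and neither passed. It was just inside the conservative threshold (IDR 0.00698), as was the weaker daf-12 peak (0.00701), and it was not in the series list. A second blmp-1 peak, 226 bp upstream, had signals of 31.3 in replicate 1 and 19.9 in replicate 2, and an IDR of 0.0368. The lin-41 gene encodes an RNA-binding TRIM-NHL protein, a target of let-7 that represses lin-29. It stood lowest of the 9 in the conservative ranked list, though not in replicate 1's, where hbl-1 was lower (0.332 against 0.341 as −log10 IDR). Its best conservative peak had a signal of 22.9 and an IDR of 0.516, and 72.6% of genes of its length class had as low or lower an IDR.

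Without the threshold, each gene can be placed by its best ranked peak. The highest −log10 global IDR in the conservative ranked list was 4.78 for lin-29, 4.71 for daf-12, 4.42 for lin-14 and 4.03 for lin-42. It was 2.8 for lin-28, 2.16 for blmp-1, 1.58 for lin-46, 0.608 for hbl-1 and 0.287 for lin-41, where the threshold is 2. Among genes of the same length class, with genes that had no ranked peak counted as lower, a value as high was found for 5.2% at lin-29, 5.45% at daf-12, 7.18% at lin-14 and 9.65% at lin-42. For lin-28 it was 8.94%, for lin-46 17.1% and for blmp-1 20%. In the replicates' own ranked lists lin-29 was highest (3.31 and 3.82) and daf-12 next (3.23 and 3.57), followed by lin-42 (2.63 and 3.36). The lists placed lin-46 differently: at 2.2 it stood above lin-14 (1.72) in replicate 1, and at 0.584 below it (2.85) in replicate 2. With 1 value per replicate, neighbours in this order such as lin-29 and daf-12 are not told apart.

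**Figure D3:**
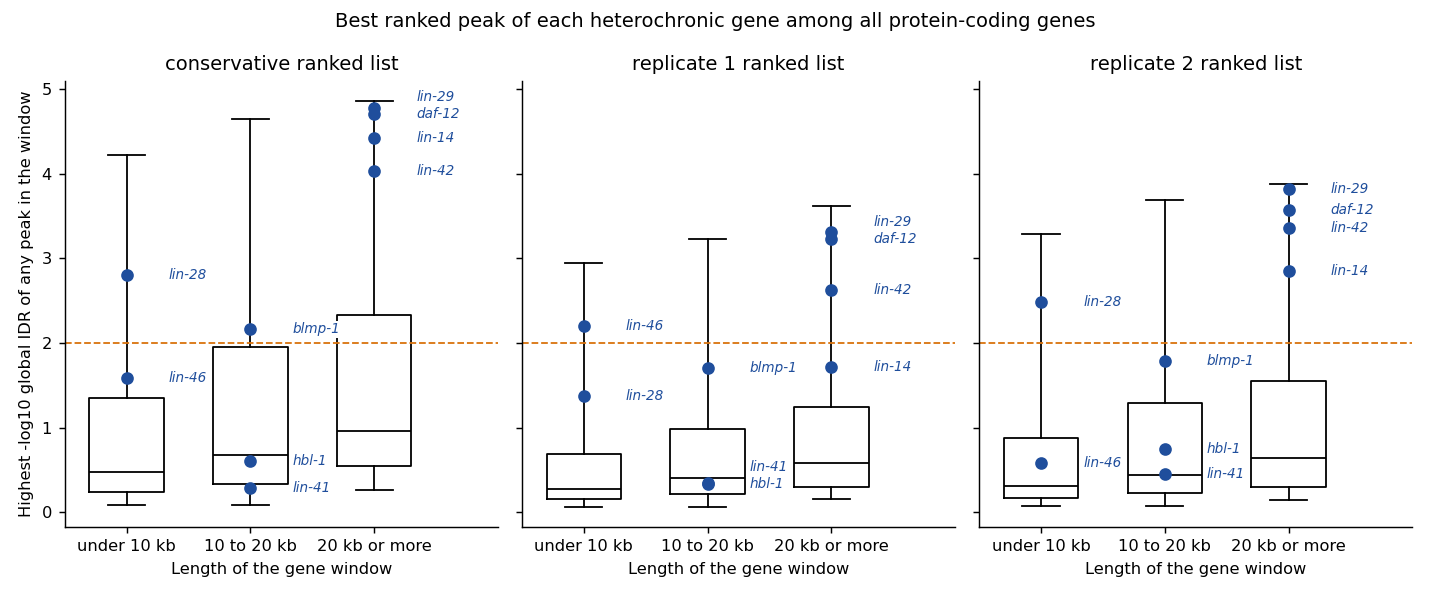
Highest −log10 global IDR of any peak in the gene window for protein-coding genes with a ranked peak there (boxes, median and quartiles, with whiskers at the 5th and 95th percentiles) and for the 9 heterochronic genes (points), by window length and ranked list, with the threshold of 2 dashed. The points of lin-29, daf-12, lin-14 and lin-42 lie above the upper quartile of their class in all 3 lists, while hbl-1 (0.608) lies within its box and lin-41 (0.287) below it in the conservative list.

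Other genes of the pathway were taken from a list of 32, of which 15 had a conservative summit in the same window. Among the 26 that encode proteins, 14 did, or 53.8% (exact 95% binomial interval 33.4 to 73.4%), beside the 14.9% of all protein-coding genes. Their windows had a median of 11.4 kb, and 4 of 7 under 10 kb, 8 of 17 of 10 to 20 kb and 2 of 2 longer ones had a summit. The promoter window held a summit for 10 of these 26 and the gene body for 5, against 0 and 6 of the 9 genes and beside 5.25% and 3.38% of all genes. This difference was not tested.

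Of the 6 RNA genes, lin-4 was the one with a conservative summit. The share of all RNA genes with a summit in such a window was not counted, so neither this count nor that over all 32 pathway genes has a matching share. The lin-4 microRNA represses lin-14 and lin-28. Its peak (chrII:5901727-5902022) had a signal of 88.7 and lay 379 bp upstream of the annotated precursor, at signals of 50 and 39.2 in replicates 1 and 2, and was in replicate 1's own list alone. The precursor and the summit lie inside the protein-coding gene F59G1.4, and the summit also in the non-coding RNA gene F59G1.12 on the other strand. The 101 bases around the summit, on the lin-4 strand, held CGGAA.
lin-4, 379 bp upstream: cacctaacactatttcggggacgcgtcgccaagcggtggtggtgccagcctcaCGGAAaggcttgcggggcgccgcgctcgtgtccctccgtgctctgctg

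In the machinery and partners of small RNAs, 7 of 12 genes had a conservative summit, beside the same 14.9% of all genes. None was found at alg-1, alg-2, pash-1, dcr-1 or pup-2. The strongest was at nhl-2, a TRIM-NHL cofactor of the microRNA complex, with a signal of 269 (122 and 149 in replicates 1 and 2), 851 bp upstream and nearer to the start of tag-340 (572 bp). At puf-9, a Pumilio-family RNA-binding protein, it was 212 (108 and 110), 287 bp upstream. The ain-1 gene, which encodes a GW182-type partner of Argonaute, had a peak of 121 at 1020 bp upstream and a second of 46.1 at 820 bp that repeated the same replicate signals, while its relative ain-2 had 61.6 at 2389 bp upstream and 50.1 at 791 bp downstream of its start. The start of B0041.5 was nearer to the first ain-2 summit, at 301 bp. The peak in the drsh-1 window (signal 142) lay 18 bp from the start of cox-5B and 2983 bp from that of drsh-1, which encodes the nuclear microRNA processing enzyme. At xrn-2, a nuclear exonuclease, the signal was 93.3 at 16 bp upstream, and at hrpk-1, an RNA-binding protein, 71.8 at 176 bp downstream. Those of nhl-2, puf-9, ain-1 and drsh-1 were in both replicates' own lists. The nhl-2 summit lay inside the non-coding RNA gene F26F4.14, and the puf-9 summit inside W06B11.7 and W06B11.9. The xrn-2 summit lay within 200 bp of the protein-coding gene rpl-43. The part of these neighbours in the signals was not tested.

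Among regulators and outputs, 7 of 14 had a conservative summit, again beside 14.9%. The others were dre-1, daf-9, nhr-23, nhr-25, nhr-85, myrf-2 and apl-1. The myrf-1 gene, which encodes a membrane-bound factor that activates lin-4, had a signal of 103 at 325 bp upstream (55.7 and 44.5 in replicates 1 and 2), in both own lists. The din-1 gene, whose product is a co-repressor of DAF-12, had 4 summits, with signals of 95, 81.6 and 55.2 at 699 to 2366 bp upstream and 51.9 within the gene, nearer to the start of F07A11.5 (7851 bp). The din-1 summit of 95 lay inside the non-coding RNA gene ZK20.8, and that of 81.6 within 200 bp of the snoRNA gene ZK20.9. The one of 51.9 lay inside the non-coding RNA gene F07A11.10 and the snoRNA gene F07A11.15. At mab-10, the NAB-type cofactor of LIN-29, the signal was 59.3 at 257 bp upstream. At lin-66 it was 88.8 at 437 bp upstream, and at lep-2, a Makorin protein, 78 at 877 bp upstream. Summits inside the gene were found at kin-20, a casein kinase related to Drosophila Doubletime (78.7), and at sea-2 (53.9, with a repeat of 9.52 that carried the same replicate signals). The summits of myrf-1 and kin-20 also lay inside non-coding RNA genes, F59B10.7 and F46F2.12. The part of these neighbours in the signals was not tested.

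**Figure D4:**
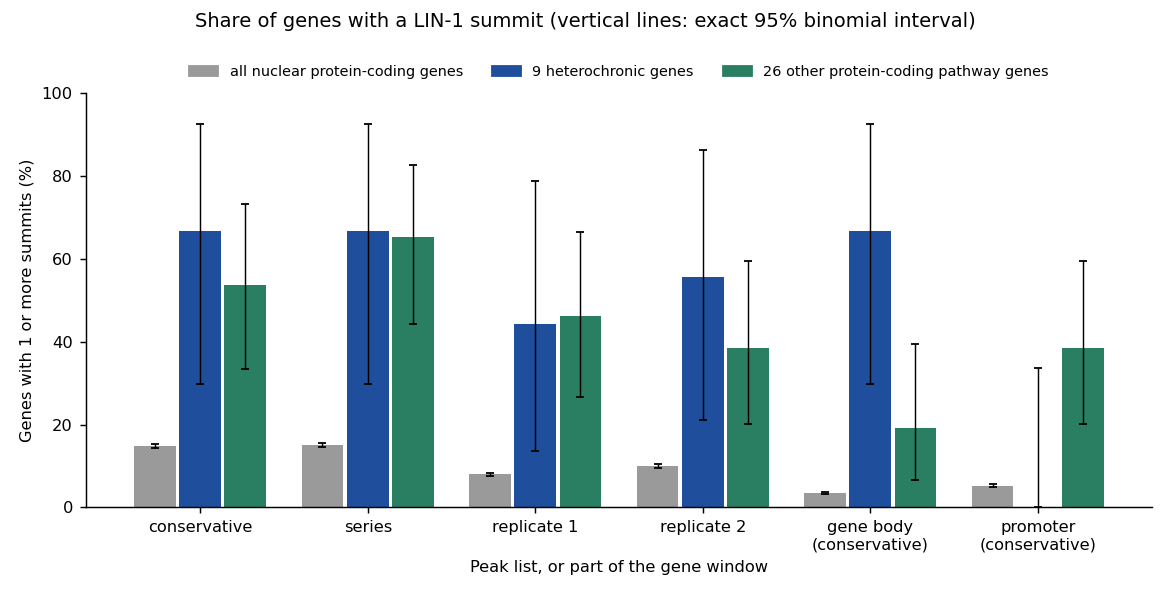
Percentage of genes with 1 or more summits by peak list, and by part of the window in the conservative list, for all nuclear protein-coding genes (grey), the 9 heterochronic genes (blue) and 26 other protein-coding genes of the pathway (green), with exact 95% binomial intervals. In the gene body the 9 genes stand at 66.7% against 3.38% of all genes. Gene length is not matched in these bars. Among genes with windows of 20 kb or more, the gene-body share was 21.3%, against 4 of 4. In the promoter window of the gene start the 9 genes stand at 0, against 5.25% of all genes and 38.5% of the other pathway genes.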

How the data were processed

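ChIP-seq peaks of LIN-1 were analysed in 1 group of 2 replicates. The authors deposited peak lists on ce11, per the labels, ranked by IDR per the file names. Each deposited peak has a signal (scale not stated) and a summit offset, and ranked lists also give the −log10 of the global IDR, as deposited. Aligner, peak caller and read depth: not given in the sources used here. Each replicate has lists of its own, while the conservative and series lists draw on both. In the latter, 16 columns that name no sample were not used.

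Summits were placed on the Ensembl 115 annotation of WBcel235 (the same assembly as ce11), with Python 3.11.15, pandas 2.3.3 and scipy 1.17.1, and coordinates are 1-based. A replicate's signal is the highest of its ranked peaks that overlap the peak. Counting functions were tested on simulated data. With 1 group and no control analysed, no test was run: counts are set beside the share of all 19973 nuclear protein-coding genes, with exact 95% binomial intervals for counting error only. The rule named all 9 genes, pathway genes with a thresholded summit, and, at summits of the 9, neighbours whose start was nearer or that lay within 200 bp. Other pathway genes and neighbours of pathway summits were added after their values were seen. The genes and lists were chosen with earlier results of these data known. Alternatives were other lists, windows, motifs and IDR thresholds.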

Additional observations from a re-analysis of the deposited data

How the results depend on the processing

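With the series list 2 promoter windows of the 9 genes held a summit and the median signal was 72.5 in place of 86.5, since the peaks in the window were not the same. At an IDR of 0.001 or less, 4 summits at the 9 genes remained, 9 pathway genes had one, and so did 8.71% of all protein-coding genes. Leaving out a replicate and using the other's own list gave 4 to 5 genes with a summit, 4 to 5 summits, 0 to 1 promoter windows, 7.99 to 9.95% of all genes, and median signals of 40.8 to 47.9 on the replicates' own scale. The share of all genes was 15.6% by any overlap, 10.1% with 2 kb upstream, 22% with 10 kb upstream and 3.38% in the gene body, where 5 pathway genes remained; by construction these windows differ in length. Around any transcript start, 1 of the 9 genes had a summit from 1 kb upstream to 200 bp downstream. From 2 kb upstream to 500 bp downstream, 2 did. The share of all genes was not counted by these rules, nor for promoter windows in the series list or the replicates' own lists. Those promoter counts therefore have no matching share. GGAA was in 6 summit windows, and CCGGAA and CCGGAAGT were each in 0, against 2 for CGGAA. The number of the 9 genes with a conservative summit stayed at 6 with the other windows, by any overlap and without repeated peaks. No paired analysis was possible because the series holds 1 group. Read depth was not given, so it is unknown what a deeper library would add at hbl-1 or lin-41.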

Other observations

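A further 6 pathway genes had a summit in the series list and none in the conservative one. The share of all genes with a summit in the series list alone was not counted. By the series list as a whole, 17 of the 26 protein-coding pathway genes had a summit, beside 15.1% of all protein-coding genes. At alg-2, an Argonaute of the microRNA complex, the signal was 59.7 with the summit 96 bp upstream. The let-7 family genes mir-48 and mir-241 shared a peak of 50.3, which lay 3.93 kb and 2.16 kb upstream of them. The lep-5 RNA gene had 63.3 at 3.28 kb upstream, and nhr-85, a nuclear hormone receptor gene, 65.1 within the gene. At myrf-2, the relative of myrf-1, the signals were 65.1 and 5.91 at 5.73 and 5.52 kb from its start. The weaker myrf-2 summit lay close to the stronger one, and whether it marks a separate site was not tested. No pathway gene had a summit in the conservative list and none in the series list.

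At the upper lin-14 peak, replicate 1's ranked list gave signals of 10.9 and 41.1 in the pair of peak sets it compared, and replicate 2's gave 30.9 and 20 (the layout of such lists holds a signal from each set). By signal the peak ranked 431 of 37781 in replicate 1 and 697 of 33854 in replicate 2.

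The 9 windows held 140 conservative ranked peaks, from 6 at lin-28 to 31 at lin-14. Per 10 kb this was 6.3 at lin-41 to 12.2 at lin-14, against 5.09 over all protein-coding windows. Most ranked peaks were below the threshold, and some stood beside a stronger one at the same IDR. At lin-14, peaks 209 and 10 bp upstream had signals of 48 and 2.48 and a shared −log10 IDR of 1.49. These are therefore not counts of separate bound sites.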
